A study of Homo sapiens with 43 samples.

Results

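The axon guidance ligands and receptors described here are the semaphorins of classes 3 to 7, the plexins, the neuropilins, the Eph receptors, the ephrins, the Slits, the Robos, the netrins and the UNC5 receptors. They were chosen by current gene symbol among the protein-coding rows of the count table, and 53 of the 20052 genes in the table were members. A further 14 annotated genes of these families, among them ROBO2, SLIT1, UNC5B and SEMA6A, were not analysed here. RNA was sequenced from HMC3 (ATCC CRL-3304), an immortalised human microglial cell line, to ask which genes respond to stress hormones, whether the dose matters and what remains after the hormone is removed. Flasks received dexamethasone (a synthetic glucocorticoid) at 1 or 0.01 µM, hydrocortisone (cortisol, the natural human glucocorticoid) at 10 or 0.01 µM, the ethanol vehicle of each dose, or untreated medium, for 3 days (day 3). Cells of each flask were then reseeded in normal growth medium for 3 further days of washout (day 6). The 43 libraries fell into 17 groups: 4 hormone groups, 4 vehicle groups and 1 medium group of 3 libraries each on day 3, 4 hormone groups of 3 libraries on day 6, and 4 vehicle groups of 1 library on day 6. All flasks held the same cell line, so p-values measure only the spread between these cultures. Groups of 1 library added nothing to that spread.

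These families are cell-surface and secreted signals first studied in growing axons and are also used by immune, vascular and tumour cells. Semaphorins bind plexins, whose intracellular part acts on small GTPases and so on the cytoskeleton. Secreted class 3 semaphorins mostly need a neuropilin as the ligand-binding partner of the plexin. Ephrins bind Eph receptor tyrosine kinases on neighbouring cells, with signalling possible in both cells. Slits bind Robos, and netrins bind DCC and UNC5 receptors. Glucocorticoids act through the glucocorticoid receptor, a nuclear receptor that binds DNA and raises or lowers transcription of its targets.

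The libraries held 7638840 to 24426643 counts, of which genes of ribosomal RNA took 9.90 to 94.9% (median 29.3%). In 7 libraries, each in a different group, this share was above 75%, so that 1083393 to 17542014 counts were left for other genes. The members together received 1326 to 19934 counts per library. The microglial and macrophage markers CSF1R, TREM2 and CD68 had medians of 0.273, 0.248 and 0.112 CPM (counts scaled to a common library size) without ribosomal RNA, and AIF1, ITGAM, CX3CR1, P2RY12, TMEM119, PTPRC, SPI1 and GPR34 were not analysed here. Of 12 fibroblast and pericyte markers 10 were in the table and 8 had medians above 1 CPM, led by COL1A1 at 1678. None of these markers in the table was at 0 in every library. The summed fibroblast markers were higher on day 3 in the 1 µM dexamethasone flasks (4953 to 5314 CPM) than in their vehicle (4491 to 4719), and the 2 astrocyte markers in the table summed to less (164 to 188 CPM against 207 to 209). The summed markers of both lists overlapped between 0.01 µM dexamethasone and its vehicle. The part of these shifts in the results below was not tested.

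Members spanned a wide range in level per length, given here as CPM per kilobase of exon over all 43 libraries. The most abundant member was EPHA2, an Eph receptor widely expressed in epithelial and tumour cells, at 18.1 ± 1.99 (SD, n = 43). PLXNB2, a receptor of class 4 semaphorins, followed at 11 ± 1.80. The highest ligands were SEMA3C, a secreted semaphorin, at 6.86 ± 1.43, and EFNB2, a transmembrane ephrin, at 6.02 ± 0.874. EPHB4, the preferred receptor of EFNB2, stood at 6.76 ± 0.540, and its level was not tested against that of SEMA3C. These SDs include differences between the groups.

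In the remaining families the leading members were NTN4 (a basement membrane netrin) at 4.27 ± 0.587, SEMA7A (a semaphorin anchored to the membrane by a lipid) at 3.11 ± 0.603 and EFNA2 (an ephrin of the A class) at 2.53 ± 0.779 CPM per kilobase. SEMA4C led the class 4 semaphorins at 1.89 ± 0.227 and SEMA6B the class 6 semaphorins at 1.60 ± 0.293. NRP1 led the neuropilins at 1.11 ± 0.253, ROBO3 the Robos at 0.971 ± 0.169 and SLIT2 the Slits at 0.154 ± 0.0425. SEMA5A was the class 5 member in the table and lay at 0.755 ± 0.248. UNC5A, a netrin receptor, was near the detection limit at 0.0145 ± 0.0165, and SEMA3A was lowest of all at 0.00983. EPHA3, EPHA6, UNC5A, SEMA3A and NTN3 received 50 to 111 counts in all libraries together and were not tested. The other 48 members were tested.

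**Figure D1:**
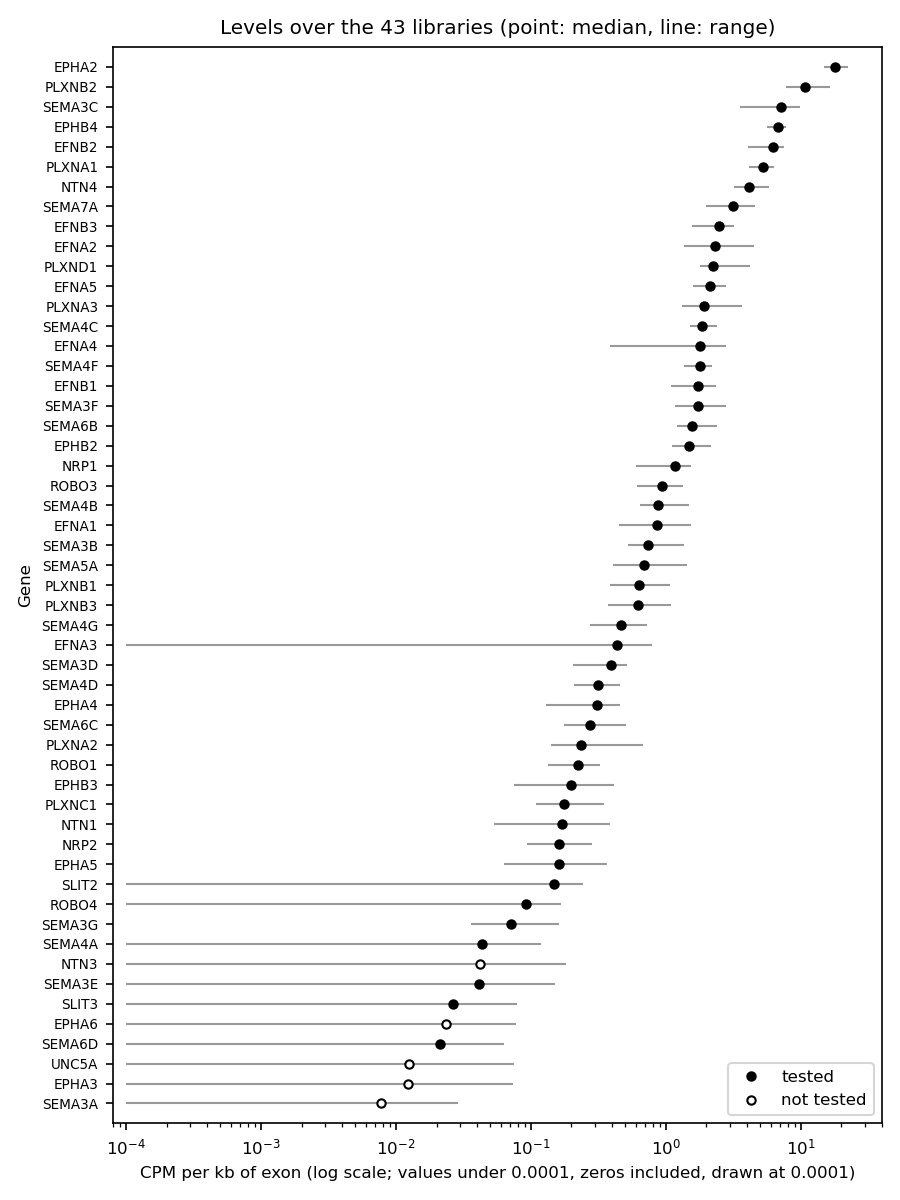
Level of each of the 53 members in CPM per kilobase of exon (log axis), with the median over 43 libraries as a point and the range as a line. Open circles mark the 5 members too low to test, and values of 0 are drawn at 0.0001. EPHA2, PLXNB2, SEMA3C, EPHB4 and EFNB2 lie at the top and SEMA3A at the bottom.

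On day 3 plexins made up 6 of the 12 members that rose with 1 µM dexamethasone, and the 7 that fell were the receptors EPHA4, EPHA5, EPHB2 and ROBO4, the coreceptor NRP1 and the ligands SEMA3C and EFNB2. A member is said to rise or fall where edgeR's quasi-likelihood test gave a Benjamini-Hochberg adjusted p below 0.05 over all 16816 genes tested. With 1 µM dexamethasone 12 members rose and 7 fell against vehicle, 39.6% of those tested, where 22.6% of all genes passed (10.3% rose and 12.3% fell). With 0.01 µM dexamethasone 6 rose and 7 fell, 27.1% beside 14% of all genes (6.14% and 7.84%). With 10 µM hydrocortisone 5 rose and 6 fell, 22.9% beside 13.1% of all genes (5.57% and 7.51%). Among protein-coding genes alone 25.6%, 16% and 15.2% passed. The median log2 change of the 48 members was 0.18, 0.08 and 0.04 in these comparisons, against 0.02, 0.00 and 0.01 for all genes. In RNA from whole cultures, fewer cells expressing a gene and less RNA per cell cannot be told apart.

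At 0.01 µM hydrocortisone no member changed in edgeR, and none had an unadjusted p below 0.05. No gene of the whole table passed there (0%), by edgeR or by DESeq2, with 397 genes at an unadjusted p below 0.05. For 42 of the 48 members the 95% interval of this log2 change lay within ±1.

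**Figure D2:**
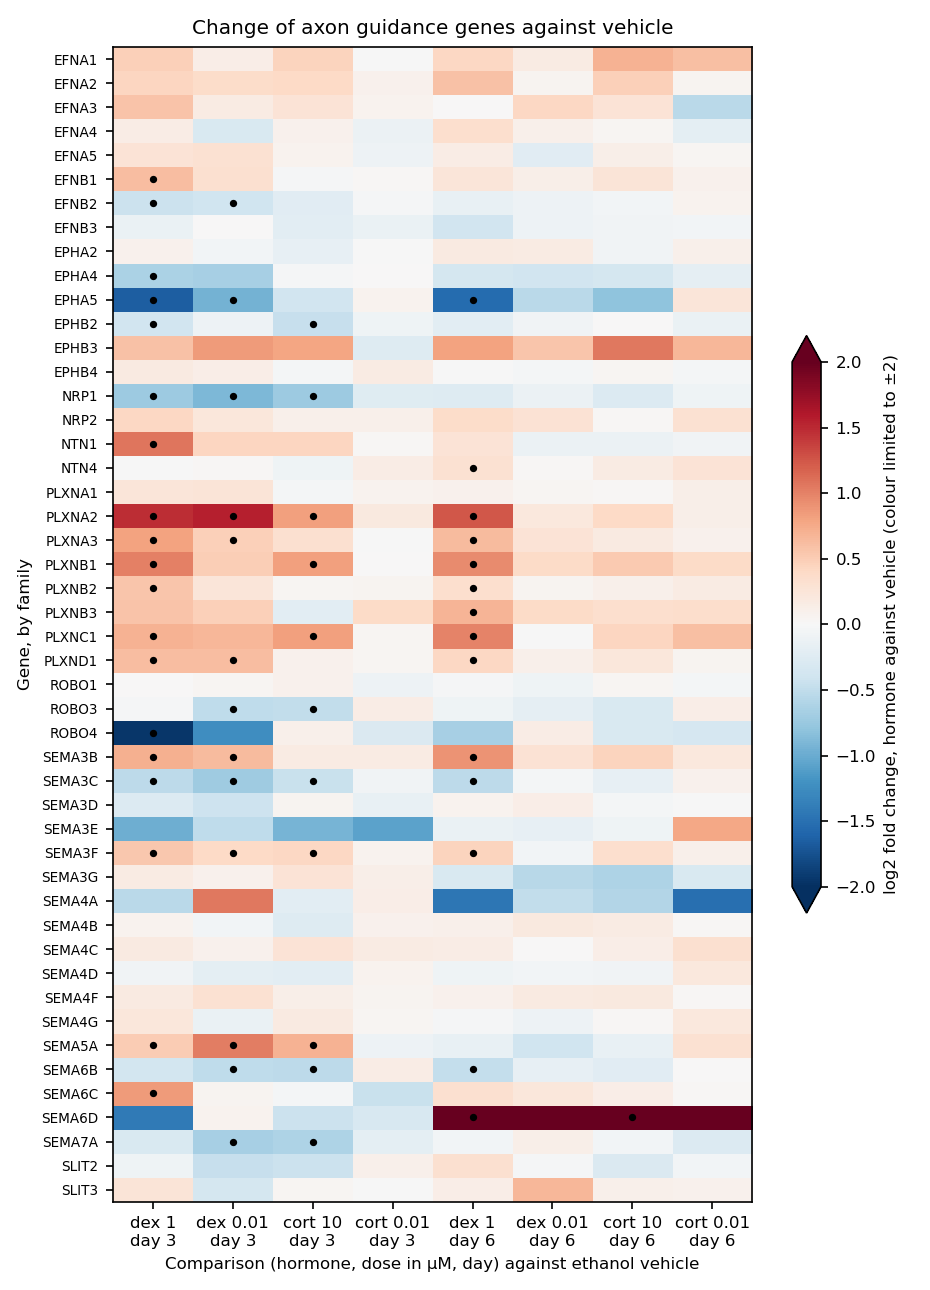
Log2 change of the 48 tested members (rows, by family) in 8 comparisons of a hormone group with its vehicle (columns), with colour limited at ±2 and a dot where the edgeR adjusted p was below 0.05. Dots in the plexin rows are all on the higher side, and the column of 0.01 µM hydrocortisone on day 3 holds none. The 4 columns of day 6 share the same 4 vehicle libraries.

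Each of the 3 responding hormone groups of day 3 had its own vehicle flasks. Across them 22 of the 48 members changed in at least 1 comparison (45.8%, beside 29% of all genes), and neither a member nor any other gene tested rose in one and fell in another. The 5 members that changed in all 3 (10.4%, beside 6.67% of all genes) were PLXNA2, SEMA3F and SEMA5A, which rose, and NRP1 and SEMA3C, which fell. A further 11 changed in a pair of the comparisons (22.9%, beside 7.3% of all genes) and 6 in 1 (12.5%, beside 15.1%), which was 1 µM dexamethasone for each of them. A single call does not mean no change in the others: EPHA4 had log2 changes of -0.63 with 1 µM dexamethasone and -0.67 with 0.01 µM.

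The windows of 250 bases before the gene start in RefSeq are printed for 4 of these 5 members, because they moved in all 3 comparisons and because they differ widely in base composition. They come from RefSeq on GRCh38.p14, run 5′ to 3′ on the strand of the gene, and have each CG dinucleotide in capitals. The RefSeq start can differ from the start of the gene in GENCODE, from which the gene coordinates below come: the window of SEMA3F runs a few bases into that gene, and those of PLXNA2 and SEMA3C end short of it. NRP1 had no entry in the table used.
PLXNA2, chr1:208244385-208244634, minus strand: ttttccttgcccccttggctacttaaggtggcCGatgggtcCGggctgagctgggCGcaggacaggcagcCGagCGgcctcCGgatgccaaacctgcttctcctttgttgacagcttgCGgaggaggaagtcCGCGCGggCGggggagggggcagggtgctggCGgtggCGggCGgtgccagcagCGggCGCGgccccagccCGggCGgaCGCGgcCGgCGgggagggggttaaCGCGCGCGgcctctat
SEMA3F, chr3:50154808-50155057, plus strand: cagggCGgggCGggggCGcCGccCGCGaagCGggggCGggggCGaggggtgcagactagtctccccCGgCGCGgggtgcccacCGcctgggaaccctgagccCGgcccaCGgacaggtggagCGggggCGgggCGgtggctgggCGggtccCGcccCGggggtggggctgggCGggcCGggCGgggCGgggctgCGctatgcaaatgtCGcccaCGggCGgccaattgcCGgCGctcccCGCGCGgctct
SEMA5A, chr5:9546076-9546325, minus strand: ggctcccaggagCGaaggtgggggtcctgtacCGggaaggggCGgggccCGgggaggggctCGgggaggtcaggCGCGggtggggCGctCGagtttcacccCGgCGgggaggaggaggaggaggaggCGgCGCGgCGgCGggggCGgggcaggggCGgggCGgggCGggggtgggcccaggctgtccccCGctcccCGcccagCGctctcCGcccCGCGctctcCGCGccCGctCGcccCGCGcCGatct
SEMA3C, chr7:80922390-80922639, minus strand: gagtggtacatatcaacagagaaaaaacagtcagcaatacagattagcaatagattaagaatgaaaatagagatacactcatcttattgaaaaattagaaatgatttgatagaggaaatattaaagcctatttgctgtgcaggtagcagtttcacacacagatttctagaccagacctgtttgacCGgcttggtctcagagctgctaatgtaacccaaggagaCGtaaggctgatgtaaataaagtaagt
The windows of the genes that rose hold 27 CG and 72.4% G and C (PLXNA2), 34 and 82.0% (SEMA3F) and 33 and 82.0% (SEMA5A). The window of SEMA3C, which fell, holds 2 CG and 36.4% G and C, the lowest share of the 47 members with a window. Over those 47 the median was 67.6% G and C and 19 CG, against 58% and 11 over all 27305 windows. Members called in fewer comparisons had rich and poor windows on either side. Of those that fell, EPHB2 had 84.8% G and C and EPHA4 43.2%. Of those that rose, PLXND1 had 88.8% and PLXNC1 53.6%. A link between base composition and direction was not tested, and only 1 gene that fell is printed here. The hexamer AGAACA of the glucocorticoid response element, searched on both strands, was in 0 of the 47 member windows and in 12.4% of all windows. Such a match would be a description of letters and not a binding site, and its absence says only that these letters are not in the window.

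Among the plexins, the semaphorin receptors, 6 of the 8 tested rose with 1 µM dexamethasone, 3 with 0.01 µM dexamethasone and 3 with 10 µM hydrocortisone, and none fell. Of all genes 10.3%, 6.14% and 5.57% rose in these comparisons, and 12.3%, 7.84% and 7.51% fell. All 8 plexins had a positive log2 change at both dexamethasone doses, with a median of 0.65 at 1 µM and 0.49 at 0.01 µM. With 10 µM hydrocortisone 6 of 8 were positive (median 0.20). The medians over all genes were 0.02, 0.00 and 0.01. The number of plexins called depended on the vehicle used as control. Against the mean of the 4 day 3 vehicle groups, PLXNB1 (0.76), PLXNC1 (0.56) and PLXNB2 (0.26) also passed at 0.01 µM dexamethasone. PLXNA3 (0.42), PLXND1 (0.30) and PLXNB2 (0.23) then also passed with 10 µM hydrocortisone, and PLXNB3 (0.56) and PLXNA1 with 1 µM dexamethasone. PLXNA2 (chr1:208022242-208244320), a receptor of class 6 and, with neuropilins, of class 3 semaphorins, had the largest rise of the family. With 1 µM dexamethasone its level was 6.76, 6.68 and 7.78 CPM, against 2.69, 2.30 and 2.61 CPM in vehicle. Here and below CPM are scaled by TMM factors, values follow the order of the library numbers in the labels, and a library left out is named by that number. The groups did not overlap, and the log2 change was 1.48 (SE 0.18, edgeR adjusted p = 1.58e-08). With 0.01 µM dexamethasone it was 5.83, 6.30 and 9.32 CPM against 2.19, 2.56 and 2.42, again with no overlap (log2 change 1.56, SE 0.19, edgeR adjusted p = 1.53e-08). The library at 9.32 CPM was the one with 94.9% ribosomal counts. With 10 µM hydrocortisone it was 6.21, 6.89 and 6.45 CPM against 3.26, 3.98 and 3.83, also separate (log2 change 0.81, SE 0.18, edgeR adjusted p = 0.0011). That vehicle group was the highest of the 4 for PLXNA2, and against the mean of the 4 day 3 vehicle groups the log2 change was 1.27 (edgeR adjusted p = 1.23e-10).

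PLXNB1, the receptor of SEMA4D, measured 9.97, 8.56 and 9.98 CPM with 1 µM dexamethasone against 4.48, 4.55 and 5.13 in vehicle. It measured 8.92, 9.61 and 10.5 CPM with 10 µM hydrocortisone against 4.89, 4.48 and 7.06. Neither pair of groups overlapped, and the log2 changes were 1.01 (SE 0.18, edgeR adjusted p = 2.30e-05) and 0.81 (SE 0.18, edgeR adjusted p = 9.11e-04). At 0.01 µM dexamethasone the log2 change of 0.49 did not pass (edgeR adjusted p = 0.0553), and against the mean of the 4 day 3 vehicle groups it was 0.76 (edgeR adjusted p = 2.64e-05). PLXNC1, the receptor of SEMA7A, was scarcer, at 2.14, 2.11 and 3.18 CPM against 1.47, 1.5 and 1.61 with 1 µM dexamethasone, and 2.47, 2.81 and 2.65 against 1.09, 1.66 and 1.67 with hydrocortisone. The groups were separate in both (log2 change 0.69, SE 0.23, edgeR adjusted p = 0.0244, and 0.81, SE 0.23, edgeR adjusted p = 0.0132). The first call for PLXNC1 was lost without hormone library 4, vehicle library 1 or vehicle library 2 (edgeR adjusted p 0.209, 0.0721 and 0.0732), and the second without hormone library 3 or vehicle library 1 (edgeR adjusted p 0.0508 and 0.0916). Both were lost with DESeq2 (adjusted p 0.0700 and 0.0623) and without the 7 libraries above 75% ribosomal counts (log2 change 0.46 and 0.66, edgeR adjusted p 0.163 and 0.0563).

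PLXND1, the receptor of SEMA3E, rose at both dexamethasone doses, with a log2 change of 0.61 (SE 0.11) at each. It lay at 28.8, 28.9 and 37.1 CPM with 1 µM against 19.9, 20.9 and 21.3 in vehicle (edgeR adjusted p = 4.75e-05). With 0.01 µM it lay at 26.3, 26.8 and 41.2 CPM against 19.8, 19.6 and 22.1 (edgeR adjusted p = 8.26e-05). The groups were separate at both doses, and the library at 41.2 CPM was again the one with 94.9% ribosomal counts. Without that library, number 3, the log2 change at 0.01 µM was 0.38 (edgeR adjusted p = 0.0106), and without all 7 libraries above 75% it was 0.34 (edgeR adjusted p = 0.0337). The log2 change of PLXND1 with 10 µM hydrocortisone was 0.08 (edgeR adjusted p = 0.716), with groups that overlapped, and 0.30 against the mean of the 4 day 3 vehicle groups (edgeR adjusted p = 0.00882). PLXNA3, which acts with neuropilins in class 3 signalling, was at 29.7, 28.6 and 37.1 CPM with 1 µM dexamethasone against 19.2, 17.7 and 17.7, without overlap (log2 change 0.80, SE 0.13, edgeR adjusted p = 8.40e-06). At the lower dose it was at 26.4, 27.1 and 43.2 CPM against 25.7, 23.5 and 20.1 (log2 change 0.48, SE 0.13, edgeR adjusted p = 0.00999). Those groups were separate by a small margin, and the call was lost without hormone library 3, the one with 94.9% ribosomal counts (log2 change 0.21, edgeR adjusted p = 0.299), or without vehicle library 3 (edgeR adjusted p = 0.0761). It was also lost with DESeq2 (adjusted p = 0.0547) and without the 7 libraries above 75% ribosomal counts (log2 change 0.29, edgeR adjusted p = 0.184). With all libraries kept, the log2 change of PLXNA3 at this dose against the mean of the 4 day 3 vehicle groups was 0.63 (edgeR adjusted p = 4.42e-06).

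PLXNB2, the most abundant plexin, rose with 1 µM dexamethasone, from 73.7, 71.5 and 70.0 CPM in vehicle to 95.1, 102 and 120 CPM. These groups were far from overlapping (log2 change 0.56, SE 0.10, edgeR adjusted p = 7.45e-05). The library at 120 CPM, number 4, held 76.1% ribosomal counts, and it also gave the highest values of PLXND1 and PLXNA3 at this dose. All 3 calls held under all 12 alternatives, with log2 changes of 0.45 to 0.63, 0.47 to 0.67 and 0.62 to 0.88. The remaining pair did not pass: PLXNB3 had a log2 change of 0.57 (edgeR adjusted p = 0.0515) and PLXNA1, the second plexin by level, 0.24 (edgeR adjusted p = 0.0632). PLXNB3 shares 1432 exon bases on the same strand with SRPK3, PLXNC1 shares 177 with CEP83 on the opposite strand and PLXNA3 shares 11 with LAGE3, so reads from those stretches may not be told apart. In all, 19 members share exon bases with another annotated gene, 15 of them on the opposite strand (NRP1, SEMA3F, SEMA5A, EFNB2, ROBO4 and EPHA4 among these), and the sources used here do not give the strand setting of featureCounts.

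Of the neuropilins, the coreceptors of class 3 semaphorins and of vascular endothelial growth factors, NRP1 (chr10:33177492-33336262) fell in all 3 responding groups and NRP2 did not pass. With 1 µM dexamethasone NRP1 measured 9.08, 8.51 and 6.91 CPM against 13.1, 14.4 and 13.1 in vehicle. With 0.01 µM it measured 8.27, 7.92 and 7.36 CPM against 14, 15.2 and 14.5, and with 10 µM hydrocortisone 7.59, 7.89 and 9.50 against 14.1, 14.5 and 12.6. Every hormone library of these groups lay below every one of its vehicle libraries. The log2 changes were -0.73, -0.89 and -0.72 (SE 0.13 in each), with edgeR adjusted p of 2.89e-05, 1.59e-06 and 6.49e-05. NRP2 had log2 changes of 0.41, 0.23 and 0.11 in the same comparisons, with edgeR adjusted p of 0.207 or more.

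Among the 6 tested class 3 semaphorins, the secreted ligands, SEMA3F and SEMA3B were higher and SEMA3C was lower in dexamethasone. SEMA3C (chr7:80742538-80922359), the most abundant of them, measured 35.1, 31.3 and 30.5 CPM with 1 µM dexamethasone against 46.7, 48.7 and 44.2 in vehicle. It measured 30.8, 29.9 and 22.1 CPM with 0.01 µM against 45.1, 51.2 and 39.9, and 28.7, 32.0 and 32.3 with 10 µM hydrocortisone against 41.6, 42.4 and 43. No hormone library reached the level of its vehicle libraries. The log2 changes were -0.53, -0.71 and -0.45 (SE 0.10 in each), with edgeR adjusted p of 1.30e-04, 1.44e-06 and 0.00185.

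SEMA3F (chr3:50155045-50189075), a ligand of neuropilin and plexin complexes, measured 11.9, 11.5 and 12.7 CPM with 1 µM dexamethasone against 8.71, 8.18 and 7.88 in vehicle. With 0.01 µM it was at 11.5, 11.8 and 11.3 CPM against 7.60, 9.15 and 9.37, and with 10 µM hydrocortisone at 13.4, 11.8 and 12.5 against 7.88, 10.2 and 10.1. The groups were separate each time, with log2 changes of 0.55, 0.40 and 0.42 (SE 0.14 in each) and edgeR adjusted p of 0.00223, 0.0393 and 0.0332. The first call held under all 12 alternatives tried. The second was lost without any 1 of hormone libraries 1, 2 and 3 or vehicle libraries 1 and 2 (edgeR adjusted p 0.0545 to 0.204) and with DESeq2 (adjusted p = 0.0946). The third was lost without hormone library 2 or 4 or vehicle library 1 (edgeR adjusted p 0.108, 0.0844 and 0.219) and with DESeq2 (adjusted p = 0.0860). Without the 7 libraries above 75% ribosomal counts neither passed (edgeR adjusted p 0.223 and 0.178), and without the low-count filter the second did not (0.0522). SEMA3B (chr3:50267558-50277546), a neighbour of SEMA3F on chromosome 3, measured 5.96, 6.00 and 6.14 CPM with 1 µM dexamethasone against 3.34, 3.67 and 4.03, without overlap (log2 change 0.71, SE 0.18, edgeR adjusted p = 0.00267). At 0.01 µM it measured 4.19, 5.68 and 7.85 CPM against 3.38, 3.44 and 4.40, with overlapping groups (log2 change 0.63, SE 0.18, edgeR adjusted p = 0.0141). Without the 7 libraries above 75% ribosomal counts that value was 0.31 (edgeR adjusted p = 0.383). It was also lost without hormone library 3, vehicle library 1 or vehicle library 2 (edgeR adjusted p 0.189, 0.0758 and 0.0613) and with DESeq2 (adjusted p = 0.227).

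SEMA5A (chr5:9035026-9546075), a transmembrane semaphorin with thrombospondin repeats, rose in all 3 responding groups. It measured 13.5, 13.5 and 14.2 CPM with 0.01 µM dexamethasone against 5.74, 6.89 and 7.55 in vehicle, without overlap (log2 change 1.02, SE 0.16, edgeR adjusted p = 5.97e-06). With 10 µM hydrocortisone it measured 17.4, 15.2 and 16.9 CPM against 8.97, 8.80 and 12.8 (log2 change 0.69, SE 0.16, edgeR adjusted p = 0.00179). This vehicle group was the highest of the 4, and against the mean of the 4 day 3 vehicle groups the log2 change was 1.07, beside 0.80 for 0.01 µM dexamethasone. With 1 µM dexamethasone SEMA5A measured 8.81, 9.29 and 10.5 CPM against 6.35, 6.51 and 7.21, separate again (log2 change 0.51, SE 0.16, edgeR adjusted p = 0.0154). That last call was lost without hormone library 4 or vehicle library 1 or 2 (edgeR adjusted p 0.0871, 0.0612 and 0.0576), without the 7 libraries above 75% ribosomal counts (0.0860) and against all vehicle groups (log2 change 0.28, edgeR adjusted p = 0.0858).

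**Figure D3:**
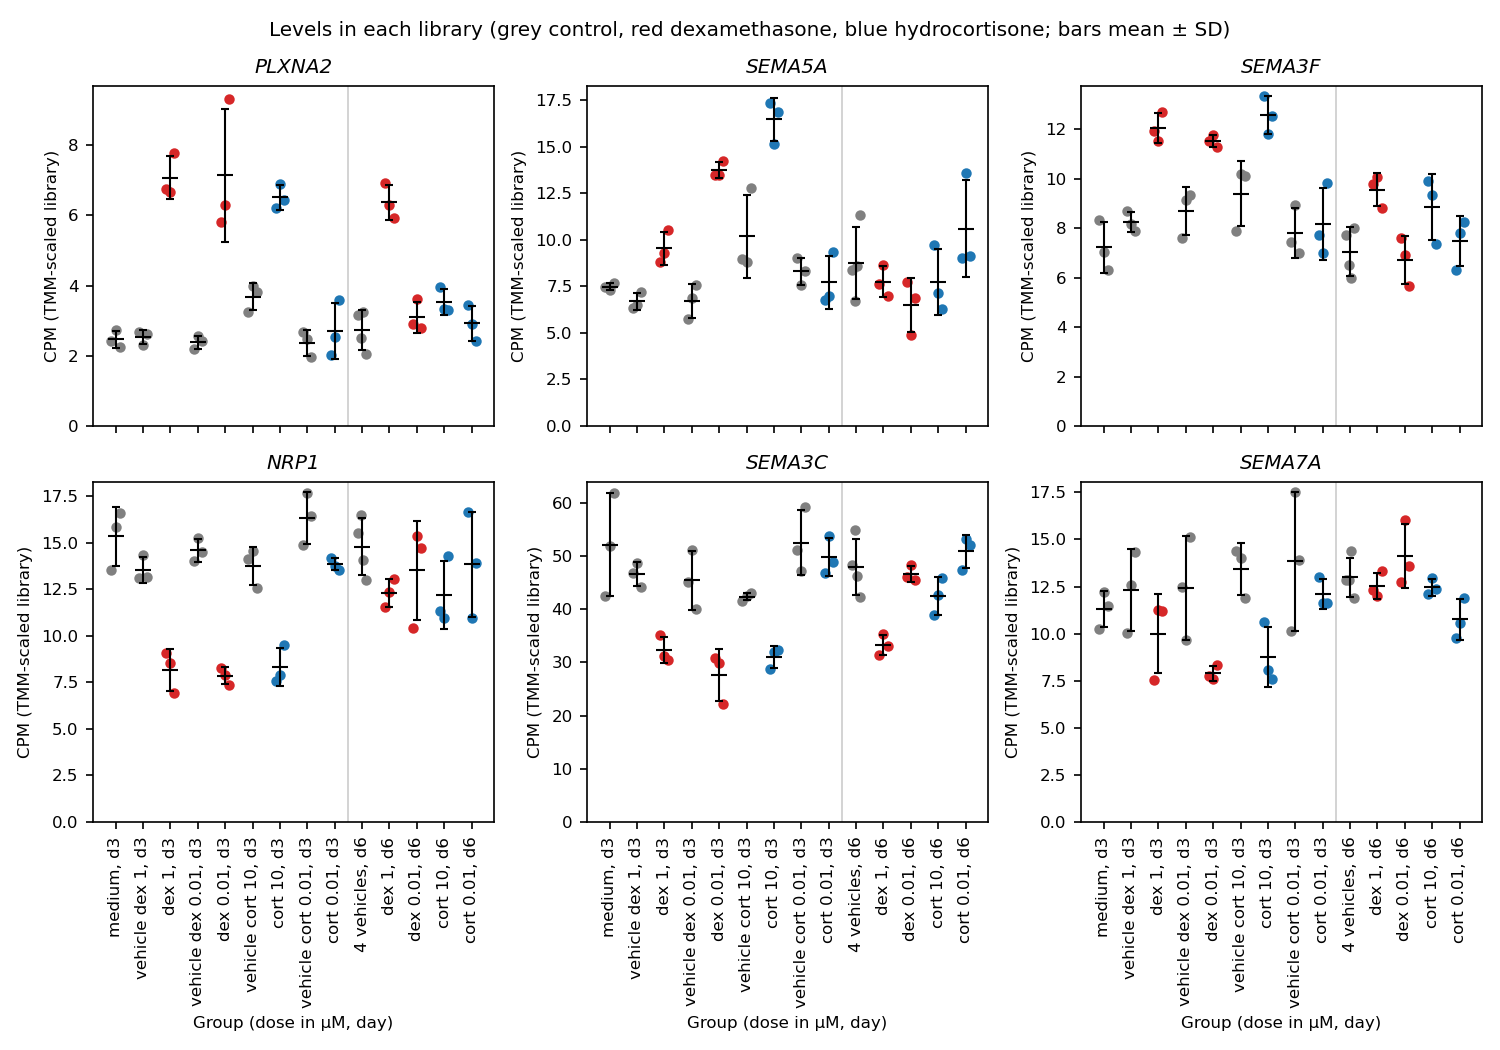
TMM-scaled CPM of PLXNA2, SEMA5A, SEMA3F, NRP1, SEMA3C and SEMA7A in each library, by group, with bars for the mean ± SD of groups of 3 libraries. For PLXNA2, NRP1 and SEMA3C the responding hormone groups of day 3 stand clear of their vehicle groups, and the 0.01 µM hydrocortisone libraries of PLXNA2 and SEMA3C overlap their vehicle libraries.

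SEMA7A, a ligand of PLXNC1 and of integrins, fell with 0.01 µM dexamethasone, at 7.75, 7.60 and 8.34 CPM against 12.5, 9.64 and 15.2 in vehicle (log2 change -0.66, SE 0.16, edgeR adjusted p = 0.00256). It also fell with 10 µM hydrocortisone, at 10.6, 8.08 and 7.60 CPM against 14.4, 14 and 11.9 (log2 change -0.62, SE 0.16, edgeR adjusted p = 0.00475). The groups did not overlap in either comparison, and the second call was lost without hormone library 4 (edgeR adjusted p = 0.0538). With 1 µM dexamethasone its log2 change was -0.30 (edgeR adjusted p = 0.171) and the groups overlapped. Against the mean of the 4 day 3 vehicle groups that change was -0.38 (edgeR adjusted p = 0.0202). SEMA6B, a transmembrane ligand of class A plexins, followed the same pattern of calls. With 1 µM dexamethasone SEMA6B was at 5.34, 6.13 and 6.03 CPM against 6.51, 7.84 and 8.21, separate groups whose log2 change of -0.37 did not pass. Against the mean of the 4 day 3 vehicle groups that change was -0.41 (edgeR adjusted p = 0.00824). It measured 5.77, 5.47 and 6.87 CPM with 0.01 µM dexamethasone against 8.27, 7.77 and 9.45 (log2 change -0.50, SE 0.15, edgeR adjusted p = 0.0179), and 5.96, 6.46 and 5.30 with hydrocortisone against 10.6, 7.47 and 7.50 (log2 change -0.52, SE 0.15, edgeR adjusted p = 0.0135). These groups were separate. The first SEMA6B call was lost without hormone library 1 or 2 or vehicle library 3 (edgeR adjusted p 0.0595, 0.0840 and 0.0971). The second was lost without hormone library 4 or vehicle library 1 (edgeR adjusted p 0.0946 and 0.192), without the 7 libraries above 75% ribosomal counts (0.142) and with DESeq2 (adjusted p = 0.0590).

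SEMA6C, of the same class, rose with 1 µM dexamethasone, at 2.31, 1.65 and 2.30 CPM against 1.14, 1.04 and 1.28, with separate groups (log2 change 0.85, SE 0.27, edgeR adjusted p = 0.0166). The call was lost without hormone library 2 or 4 or vehicle library 2 (edgeR adjusted p 0.0607, 0.0661 and 0.0756). Against all vehicle groups of day 3 it was 0.41 (edgeR adjusted p = 0.135). None of the 6 tested class 4 semaphorins, which are transmembrane ligands of class B plexins, changed in any of the 3 comparisons. SEMA4C, the most abundant of them, had log2 changes of 0.18, 0.09 and 0.27, with edgeR adjusted p of 0.125 or more.

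Of the 14 tested Eph receptors and ephrins, 1 rose and 4 fell with 1 µM dexamethasone (35.7%, beside 22.6% of all genes), 2 fell with 0.01 µM (14.3%, beside 14%) and 1 fell with 10 µM hydrocortisone (7.14%, beside 13.1%). The abundant receptors EPHA2 and EPHB4 did not pass in any comparison of day 3. EPHA2 had log2 changes of 0.09 (95% interval -0.13 to 0.31), -0.05 (-0.27 to 0.17) and -0.16 (-0.38 to 0.07) with 1 µM and 0.01 µM dexamethasone and 10 µM hydrocortisone. EPHA5, a receptor of A class ephrins best known from neurons, was at 0.623, 0.641 and 0.658 CPM with 1 µM dexamethasone against 2.93, 1.25 and 1.90. The groups were well apart (log2 change -1.64, SE 0.27, edgeR adjusted p = 7.51e-06). At 0.01 µM it was at 0.932, 1.35 and 1.47 CPM against 3.21, 2.36 and 1.55, a narrower separation (log2 change -0.94, SE 0.27, edgeR adjusted p = 0.0142). That call was lost without hormone library 1 or vehicle library 1 (edgeR adjusted p 0.105 and 0.144), without the 7 libraries above 75% ribosomal counts (0.130) and with DESeq2 (adjusted p = 0.0909). Against the mean of the 4 day 3 vehicle groups it was -0.49 (edgeR adjusted p = 0.117). With 10 µM hydrocortisone it was at 0.723, 0.749 and 0.884 CPM, overlapping its vehicle at 0.816, 0.913 and 1.28 CPM (log2 change -0.38, edgeR adjusted p = 0.401). Against the 4 vehicle groups this change was -1.12 (edgeR adjusted p = 1.16e-04). EPHA5 shares 535 exon bases with EPHA5-AS1 on the opposite strand.

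EPHB2 fell with 1 µM dexamethasone, at 17, 14.5 and 16.4 CPM against 21.6, 21.5 and 19.4 (log2 change -0.39, SE 0.11, edgeR adjusted p = 0.00602). In 10 µM hydrocortisone it was at 19.2, 17.5 and 18.5 CPM against 27.2, 24.9 and 23.9 (log2 change -0.46, SE 0.11, edgeR adjusted p = 0.00196). Both pairs of groups were separate. The first call was lost without hormone library 3 (edgeR adjusted p = 0.0553), and the second, against the mean of all vehicle groups, was -0.22 (edgeR adjusted p = 0.0542). EPHA4 fell with 1 µM dexamethasone at 0.979, 2.01 and 1.97 CPM against 2.28, 3.17 and 2.23, with groups close to each other (log2 change -0.63, SE 0.23, edgeR adjusted p = 0.0465). It was lost without hormone library 2 or vehicle library 1 or 2 (edgeR adjusted p 0.323, 0.0507 and 0.267), without the low-count filter (0.0515) and with DESeq2 (adjusted p = 0.0902). With 0.01 µM dexamethasone the log2 change of EPHA4 was also -0.67 and did not pass. Against the mean of the 4 day 3 vehicle groups it was -0.67 at both doses (edgeR adjusted p = 0.0122 for 0.01 µM and 0.00691 for 1 µM). EFNB2, the ligand of EPHB4, fell at both dexamethasone doses. It measured 21.6, 20.6 and 23.0 CPM with 1 µM against 31.4, 28.9 and 27.6, and 24.6, 22.4 and 22.6 with 0.01 µM against 31.6, 31.0 and 29.1. The groups were separate, and both calls (log2 change -0.43, SE 0.09, edgeR adjusted p = 1.41e-04, and -0.39, SE 0.09, edgeR adjusted p = 8.28e-04) held under all 12 alternatives. EFNB1 rose with 1 µM dexamethasone, at 6.41, 7.41 and 7.78 CPM against 3.83, 5.13 and 5.08, with no overlap (log2 change 0.62, SE 0.16, edgeR adjusted p = 0.00277), and by 0.33 against the mean of the 4 day 3 vehicle groups (edgeR adjusted p = 0.0364). None of the 5 A class ephrins passed in any comparison, though all 5 had positive log2 changes with 1 µM dexamethasone (EFNA2 0.43, 95% interval -0.15 to 1.00).

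Of the 7 tested netrins, Slits and Robos, 1 rose and 1 fell with 1 µM dexamethasone (28.6%, beside 22.6% of all genes), and 1 fell in each of the other responding groups (14.3%, beside 14% and 13.1%). NTN1, the classical netrin, rose with 1 µM dexamethasone, at 2.40, 1.65 and 1.53 CPM against 1.14, 0.960 and 0.570, without overlap (log2 change 1.07, SE 0.36, edgeR adjusted p = 0.0248). The call was lost without hormone library 2 or vehicle library 2 or 4 (edgeR adjusted p 0.126, 0.0547 and 0.146). NTN4, far more abundant per length, had a log2 change of -0.00 (95% interval -0.19 to 0.18) in that comparison. ROBO4, a Robo best known from endothelium, fell with 1 µM dexamethasone at 0.0890, 0.320 and 0.110 CPM against 0.651, 0.835 and 0.759. These values rest on 1, 7 and 1 counts against 8, 20 and 16, so the size of the fall is poorly resolved. The groups were apart (log2 change -1.95, SE 0.55, edgeR adjusted p = 0.00684), and the 4 endothelial markers in the table, each with a median below 1 CPM, summed to 1.75 to 1.88 CPM in these hormone libraries and 1.10 to 1.35 in the vehicle. Their part in that result was not tested.

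ROBO3, a divergent Robo, fell with 0.01 µM dexamethasone, at 5.53, 5.36 and 4.42 CPM against 7.60, 6.39 and 7.86 (log2 change -0.50, SE 0.17, edgeR adjusted p = 0.0347), with separate groups. In 10 µM hydrocortisone it was at 6.27, 5.40 and 4.29 CPM against 8.16, 6.23 and 7.99, with groups that overlapped (log2 change -0.49, SE 0.16, edgeR adjusted p = 0.0416). Both calls were fragile: they held under 6 and 4 of 12 alternatives. The first was lost without hormone library 2 or 3 or vehicle library 1 or 3 (edgeR adjusted p 0.0535 to 0.145), the second without hormone library 3 or 4 or vehicle library 1 or 3 (edgeR adjusted p 0.0918 to 0.266) and with the replicate block (edgeR adjusted p = 0.0832). Both were lost with DESeq2 (adjusted p 0.143 and 0.0573) and without the 7 libraries above 75% ribosomal counts (edgeR adjusted p 0.208 and 0.0992), and the second without the low-count filter (0.0539). Neither SLIT2 nor SLIT3, the Slits in the table, passed in any comparison of day 3.

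Dexamethasone and hydrocortisone are both steroids, of which dexamethasone carries an added fluorine, an added methyl group and a further double bond, and they were compared at the matched dose of 0.01 µM on day 3 as the difference of the effects over vehicle. This was the 1 pair of compounds at a matched dose, and p-values were adjusted over all 16816 genes. The effects of 5 members differed (10.4%, beside 4.98% of all genes). The difference was 1.37 for PLXNA2 (95% interval 0.85 to 1.88, edgeR adjusted p = 3.32e-04), 1.13 for SEMA5A (0.68 to 1.59, edgeR adjusted p = 7.68e-04) and 0.58 for PLXND1 (0.26 to 0.90, edgeR adjusted p = 0.0212), on the log2 scale and higher with dexamethasone. It was -0.64 for SEMA3C (-0.93 to -0.34, edgeR adjusted p = 0.00456) and -0.65 for NRP1 (-1.02 to -0.28, edgeR adjusted p = 0.0255), lower with dexamethasone. At 0.01 µM hydrocortisone PLXNA2 measured 2.01, 2.54 and 3.58 CPM beside 2.67, 2.47 and 1.96 in its vehicle, and SEMA3C 46.7, 53.7 and 48.8 beside 51.2, 47.1 and 59.1. Those groups overlapped. NRP1 measured 14.2, 13.8 and 13.5 CPM beside 14.8, 17.6 and 16.4, which did not overlap (log2 change -0.24, edgeR adjusted p = 1.00).

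Of these differences, PLXNA2, SEMA5A and SEMA3C held under all 17 alternatives. PLXND1 was lost without dexamethasone library 3 (edgeR adjusted p = 0.182) or vehicle library 1 (0.0566), without hydrocortisone library 2 or 3 (0.0519 and 0.0891) or its vehicle library 2 (0.0756), without the 7 libraries above 75% ribosomal counts (difference 0.31, edgeR adjusted p = 0.242), and with DESeq2 (adjusted p = 0.103). NRP1 was lost without dexamethasone library 3 (edgeR adjusted p = 0.0574) or vehicle library 2 (0.0536), without hydrocortisone library 2 or 3 (0.0612 and 0.0507) or its vehicle library 1 (0.0903), and with DESeq2 (adjusted p = 0.0544). For other members the interval bounds the difference without giving its direction, as for SEMA3F at 0.34 (-0.05 to 0.72) and EPHB2 at -0.01 (-0.32 to 0.29). The interval of EPHA5 lay below 0, at -1.01 (-1.77 to -0.26), but the difference did not pass after adjustment (edgeR adjusted p = 0.120). For 27 of the 48 members the 95% interval of the difference lay within ±1.

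**Figure D4:**
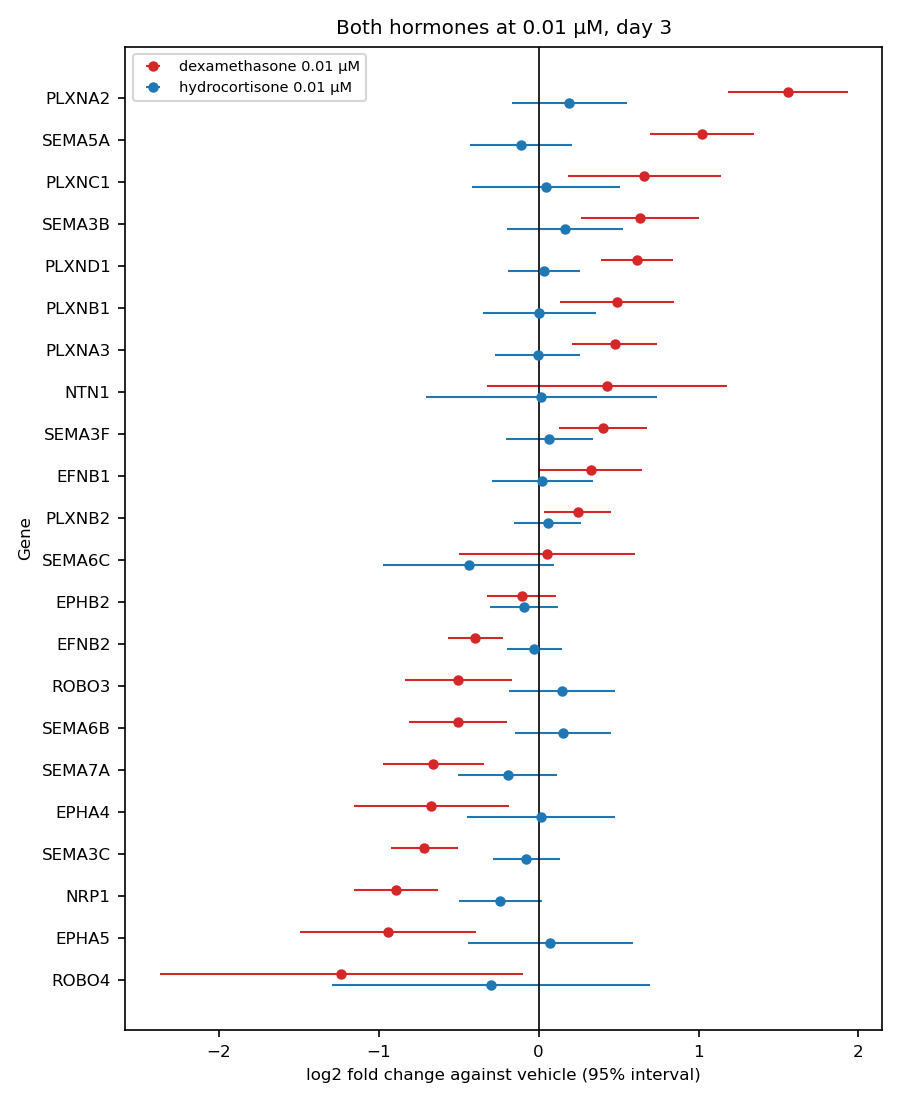
Log2 change over vehicle at 0.01 µM on day 3 for dexamethasone and hydrocortisone, with 95% intervals, for the 22 members that changed in at least 1 of the 3 responding groups. For PLXNA2, SEMA5A, PLXND1, SEMA3C and NRP1 the intervals of the hormones do not meet, and every interval of hydrocortisone includes 0.

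Between the dexamethasone doses no member differed in edgeR (0.0476% of all genes did), with 5 members at an unadjusted p below 0.05. SEMA5A, with the smallest adjusted p, had a difference of log2 effects (1 µM minus 0.01 µM) of -0.51 (95% interval -0.97 to -0.06, edgeR adjusted p = 0.690). The interval for PLXNA2 ran from -0.59 to 0.44, for NRP1 from -0.21 to 0.53 and for PLXND1 from -0.32 to 0.32. For 32 of the 48 members it lay within ±1. The high doses of the hormones, 1 and 10 µM, differ, so their effects are only set side by side: PLXNA2 1.48 and 0.81, SEMA5A 0.51 and 0.69, NRP1 -0.73 and -0.72, PLXND1 0.61 and 0.08. With the mean of the 4 day 3 vehicle groups as control for both, these values were 1.39 and 1.27, 0.28 and 1.07, -0.83 and -0.80, and 0.54 and 0.30.

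On day 6, after washout of 1 µM dexamethasone, 14 members passed, 11 higher and 3 lower (29.2%, beside 10.2% of all genes, 5.13% higher and 5.04% lower, and 11.8% of protein-coding genes), and 7 of the 8 tested plexins were among the higher ones. Of the 19 members called on day 3, 10 passed again on day 6, all in the same direction (52.6%, where 34.7% of all genes called on day 3 did), and 9 did not. They made up 71.4% of the day 6 calls, against 77.1% for all genes, and the other 4 (PLXNB3, NTN4, SEMA6B and SEMA6D) had no call with this dose on day 3. The 4 vehicle libraries of day 6, 1 per vehicle group, served all comparisons of that day, so those comparisons share their controls. Each was fitted as its own group, so the spread among them did not enter these p-values or those of changes between the days. With the 4 fitted as 1 group, 12 of the 14 members passed, and SEMA6D had no adjusted p. Vehicle values of day 6 are given in the order 10 and 0.01 µM hydrocortisone, 1 and 0.01 µM dexamethasone. PLXNA2 still measured 6.92, 6.29 and 5.92 CPM against 3.16, 2.51, 3.24 and 2.04 in the vehicles, with no overlap (log2 change 1.24, SE 0.17, edgeR adjusted p = 3.29e-07). PLXNB1 was at 9.26, 8.39 and 7.51 CPM against 4.84, 3.80, 4.21 and 4.56 (log2 change 0.95, SE 0.16, edgeR adjusted p = 4.27e-05), and PLXNC1 at 3.30, 2.43 and 3.46 against 1.78, 1.44, 1.13 and 1.90 (log2 change 1.00, SE 0.21, edgeR adjusted p = 8.69e-04). These groups were separate as well. PLXNA3 (0.63), PLXND1 (0.41), PLXNB2 (0.34) and PLXNB3 (0.67) also passed, with edgeR adjusted p of 2.65e-04, 0.00564, 0.0185 and 0.0230. Leaving out hormone library 2 ended the calls of PLXND1, PLXNB2 and PLXNB3 (edgeR adjusted p 0.0634, 0.141 and 0.222), and those of PLXNB2 and PLXNB3 also ended without the vehicle library of 10 µM hydrocortisone (0.110 and 0.0692) or of 0.01 µM hydrocortisone (0.161 and 0.114). PLXNB2 did not pass with the 4 vehicles as 1 group (0.0682). The median log2 change of the 8 plexins was 0.65 on day 6, as on day 3.

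EPHA5 was at 0.929, 0.839 and 0.866 CPM against 2.60, 1.98, 3.08 and 2.75 (log2 change -1.54, SE 0.25, edgeR adjusted p = 1.87e-05). SEMA3C was at 31.4, 35.2 and 33.1 CPM against 48.2, 54.9, 46.3 and 42.2 (log2 change -0.52, SE 0.10, edgeR adjusted p = 1.77e-04), and SEMA3B at 7.14, 5.45 and 6.14 against 3.01, 3.87, 3.40 and 3.23 (log2 change 0.89, SE 0.17, edgeR adjusted p = 1.53e-04). In all 3 the groups were separate, and the calls held under all 13 alternatives. SEMA3F was at 9.80, 10.1 and 8.81 CPM against 7.74, 6.5, 5.99 and 8.02, and SEMA6B at 5.64, 5.96 and 5.41 against 6.93, 6.31, 9.23 and 9.73. These groups did not overlap (log2 change 0.45, SE 0.13, edgeR adjusted p = 0.0151, and -0.48, SE 0.14, edgeR adjusted p = 0.0189). The SEMA3F call was lost without hormone library 2 or 3 or the vehicle library of 0.01 µM hydrocortisone or 1 µM dexamethasone (edgeR adjusted p 0.0525 to 0.0822), and that of SEMA6B without hormone library 2 or 4 or the vehicle library of either dexamethasone dose (0.0713 to 0.0964), or without the 7 libraries above 75% ribosomal counts (0.0532). NTN4, with no call on day 3, was at 22.5, 22.5 and 22.3 CPM against 18.9, 19.9, 14.7 and 19.3 (log2 change 0.31, SE 0.08, edgeR adjusted p = 0.0112), all separate. Without the vehicle library of 1 µM dexamethasone, the one at 14.7 CPM with over 75% ribosomal counts, NTN4 was at 0.21 (edgeR adjusted p = 0.154), and without all 7 such libraries at 0.23 (edgeR adjusted p = 0.0686).

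The 9 members called on day 3 and not on day 6 were NRP1, SEMA5A, EFNB1, EFNB2, EPHA4, EPHB2, NTN1, ROBO4 and SEMA6C. The last 7 had day 6 log2 changes of 0.24, -0.15, -0.35, -0.21, 0.27, -0.66 and 0.32, with edgeR adjusted p of 0.189 or more. NRP1 was at 11.5, 12.3 and 13 CPM against 15.5, 16.5, 14.1 and 13, with groups that met (log2 change -0.26, edgeR adjusted p = 0.188), and SEMA5A at 7.62, 8.64 and 6.97 against 8.36, 6.69, 8.58 and 11.3, with overlap (log2 change -0.15, edgeR adjusted p = 0.618). The change of the effect between the days, with the mean of all vehicle groups of each day as control, was 0.57 for NRP1 (edgeR adjusted p = 0.0506), -0.43 for SEMA5A (edgeR adjusted p = 0.364), -0.14 for PLXNA2 (95% interval -0.58 to 0.30), 0.01 for SEMA3C (-0.25 to 0.26) and -0.13 for EPHA5 (-0.80 to 0.54). The NRP1 change passed with RLE size factors, without the low-count filter and with the replicate block (edgeR adjusted p 0.0410, 0.0499 and 0.0371), and without hormone library 2 of day 3 (0.0391) or any 1 of 4 vehicle libraries (0.0343 to 0.0490). In this comparison 1 member passed, SEMA6D (1.69% of all genes).

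**Figure D5:**
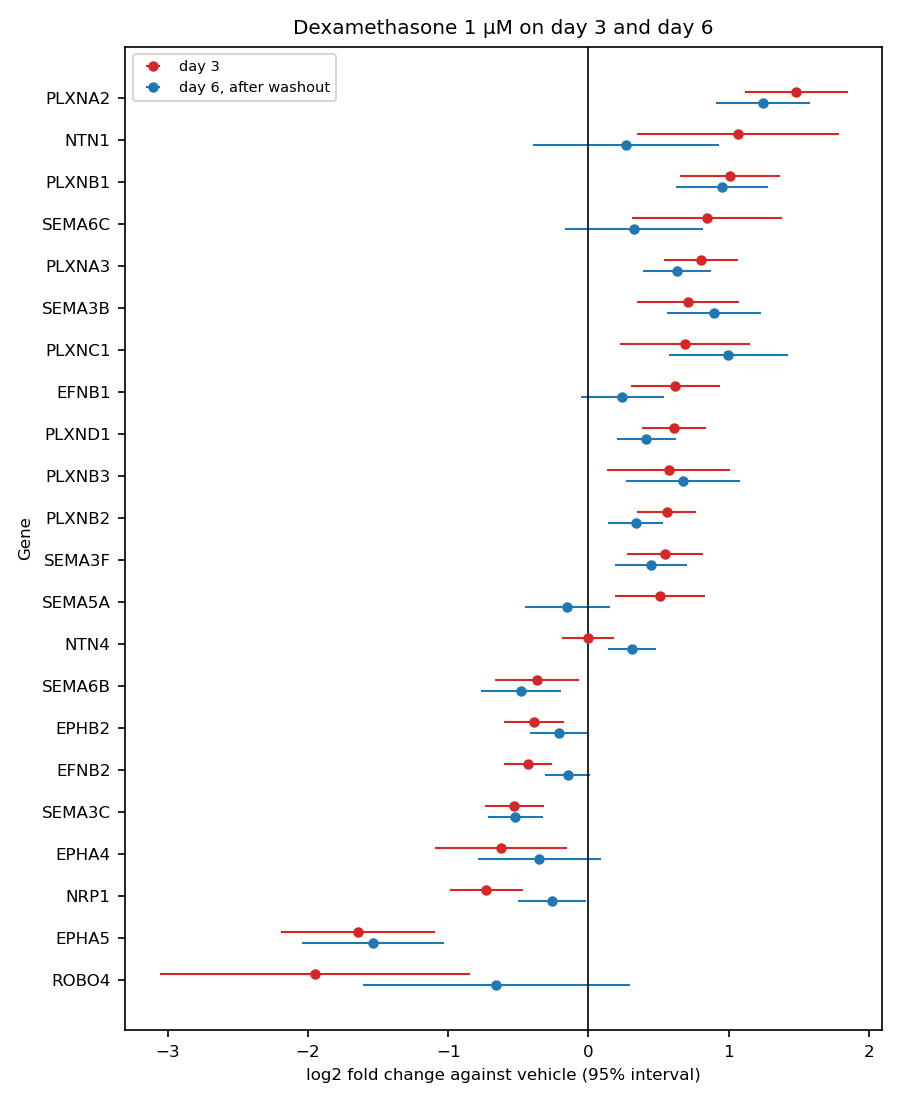
Log2 change with 1 µM dexamethasone on day 3 (before washout) and day 6 (after washout), with 95% intervals, for the members that changed on either day, SEMA6D left out. Day 3 values are against the vehicle of that dose and day 6 values against the 4 shared vehicle libraries. SEMA3C is at -0.53 and -0.52 and PLXNB1 at 1.01 and 0.95, PLXNB2 and PLXND1 are lower on day 6 (0.34 and 0.41) and PLXNC1 is higher (1.00), and NRP1 and SEMA5A lie nearer to 0 on day 6.

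After the lower dexamethasone dose no member passed on day 6 (0.0833% of all genes did), with 5 members at an unadjusted p below 0.05. PLXNA2 measured 2.90, 3.61 and 2.79 CPM, overlapping the vehicle libraries (log2 change 0.20, 95% interval -0.13 to 0.54). After 0.01 µM hydrocortisone none passed either (0.0892% of all genes), with 8 members at an unadjusted p below 0.05. After 10 µM hydrocortisone 1 member passed, SEMA6D (0.892% of all genes), with 11 at an unadjusted p below 0.05. PLXNA2 was there at 3.97, 3.33 and 3.30 CPM, just above the highest vehicle library (log2 change 0.39, edgeR adjusted p = 0.340).

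The effects of 10 µM hydrocortisone changed between the days for 5 members (10.4%, beside 6.97% of all genes). SEMA5A dropped by 1.22 on the log2 scale (edgeR adjusted p = 1.56e-05) and PLXNA2 dropped by 0.88 (edgeR adjusted p = 0.00704), and both held under all 29 alternatives. NRP1 moved up by 0.53 (edgeR adjusted p = 0.0309) and SEMA3C by 0.42 (edgeR adjusted p = 0.0342), towards 0 in both cases. NRP1 was lost without hydrocortisone library 2 or 3 of day 3, library 4 of day 6, or the day 6 vehicle library of either dexamethasone dose (edgeR adjusted p 0.0607 to 0.178). SEMA3C was lost without any 1 of the 3 hydrocortisone libraries of day 3, library 3 or 4 of day 6, or the same vehicle libraries (edgeR adjusted p 0.0503 to 0.131). With the flask as block SEMA3C was at 0.31 (edgeR adjusted p = 0.0859), and SEMA7A passed at 0.76 (edgeR adjusted p = 0.00658). On day 6 SEMA5A was at 9.70, 7.16 and 6.28 CPM in these flasks, overlapping the vehicles at 6.69 to 11.3, and SEMA7A at 12.1, 13 and 12.4 beside 12.8, 12.8, 14.4 and 11.9.

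SEMA6D, a class 6 semaphorin near the detection limit, passed in 5 comparisons that use the day 6 vehicles, whose 4 libraries held 0, 1, 0 and 10 counts of it. In CPM the vehicles stood at 0, 0.0380, 0 and 0.474, and the day 6 libraries of 1 µM dexamethasone at 0.192, 0.168 and 0.180, inside that range. The fitted log2 values were 2.54 for 1 µM dexamethasone on day 6, 3.02 for 10 µM hydrocortisone on day 6, 3.31 and 3.22 for their changes over washout and -2.89 for the vehicles of day 6 against day 3 (edgeR adjusted p 0.0221, 0.0276, 0.0455, 0.0151 and 0.0242). Fitted values of a gene with vehicle libraries at 0 depend on the prior count. Without the 7 libraries above 75% ribosomal counts none of the 5 passed (edgeR adjusted p 0.0690 to 0.246). Without the vehicle library of 10 µM hydrocortisone or of 1 µM dexamethasone none passed either (edgeR adjusted p 0.124 to 0.270 and 0.0537 to 0.174). Without that of 0.01 µM hydrocortisone the change of hydrocortisone over washout still passed and the other 4 did not (edgeR adjusted p 0.0567 to 0.0967). The change of 1 µM dexamethasone over washout held under 7 of 26 alternatives. Without the vehicle library of 0.01 µM dexamethasone SEMA6D was not tested.

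The vehicle itself moved no member past the threshold: against untreated medium on day 3 edgeR called 0 of 48 (0% of all genes), with 3 at an unadjusted p below 0.05, SEMA3F (log2 change 0.24), EPHA5 (-0.53) and EFNB2 (-0.17). For 44 of the 48 the 95% interval lay within ±1. The vehicle flasks of day 6 differed from those of day 3 for 1 member, SEMA6D (0.505% of all genes), with 13 at an unadjusted p below 0.05. The vehicle group of 10 µM hydrocortisone stood apart from the other vehicle groups of day 3 without overlap for several members. It was lower for ROBO4, at 0 to 0.441 CPM, and higher for EPHB2, at 23.9 to 27.2. It was also higher for PLXNA2 (3.26 to 3.98 CPM, others up to 2.69) and PLXND1 (23.0 to 27.8, others up to 22.4). The same held for PLXNA1 (58.2 to 62.1, others up to 57.7) and, narrowly, SEMA3B (4.41 to 6.25, others up to 4.40). For EPHA5 it was low, at 0.816 to 1.28 CPM, overlapping 1 library of the others at 1.25. Against the mean of all 4 vehicle groups, 20 members passed with 10 µM hydrocortisone in place of 11. The added ones were SEMA3B, PLXND1, EPHB3, EPHA5, EFNA5, PLXNA3, EFNB2, NTN1, EFNA2 and PLXNB2, and EPHB2 no longer passed. With 0.01 µM dexamethasone 17 passed in place of 13, with EPHB2, EPHA4, PLXNB1, PLXNC1 and PLXNB2 added and EPHA5 lost. With 1 µM dexamethasone 21 passed in place of 19. The share of all genes past the threshold with this control is not given here, so these counts are not a result about the members.

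Among 76 partners of these families (other receptors, cleaving enzymes and intracellular effectors), 61 were in the table and 58 were tested. With 1 µM dexamethasone 10 rose and 16 fell (44.8%), with 0.01 µM 7 rose and 6 fell (22.4%), and with 10 µM hydrocortisone 2 rose and 12 fell (24.1%), beside the 22.6%, 14% and 13.1% of all genes. RGMB, a repulsive guidance molecule that binds neogenin, had log2 changes of -1.76, -1.46 and -1.36 (edgeR adjusted p = 1.41e-20 for the first). ADAM10, a protease that sheds ephrins and other surface proteins, had 0.98, 0.97 and 0.78 (edgeR adjusted p = 4.40e-15). At 0.01 µM hydrocortisone the same genes stood at -0.13 and -0.05. ABL2, a kinase acting on the cytoskeleton, had -0.63 (edgeR adjusted p = 1.15e-07) and FYN, a kinase downstream of plexins and netrin receptors, -0.53 (edgeR adjusted p = 3.12e-04) with 1 µM dexamethasone. MICAL2, of the family that links plexins to actin, had 0.47 (edgeR adjusted p = 1.74e-05) and GPC1, a glypican that binds Slits, 0.63 (edgeR adjusted p = 2.96e-04). On day 6 after 1 µM dexamethasone 3 partners were higher and 3 lower (10.3%), a share near the 10.2% of all genes.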

How the data were processed

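The authors deposited raw counts per gene for 43 libraries of stranded total RNA from 1 cell line. Per the submitters' processing notes the tools were FastQC, STAR, Subread and featureCounts with GRCh38; the sources used here give no versions and no strand setting. Symbols came from a name table (19978 genes) or GENCODE release 29 (70), which also gave positions and exon lengths; 4 genes had neither. The counts were fitted with edgeR 4.0.16 in R 4.3.3 (quasi-likelihood, robust, TMM factors, filterByExpr with a minimum count of 10 and total of 15), with 1 coefficient per group over all libraries and 26 residual degrees of freedom. Benjamini-Hochberg adjustment ran over 16816 genes in each of 14 comparisons. Intervals are 95% intervals of the fit. The code was tested on simulated data. The members and lists were chosen with earlier results of these data known. Named are members past the threshold in any comparison, the most abundant member of each family and the 6 partners with the smallest p with 1 µM dexamethasone on day 3. Alternatives were DESeq2 1.42.0, RLE factors, no low-count filter, no library above 75% ribosomal counts, a replicate block, other vehicle controls and leaving out each library. Among 39 pairs of libraries of the same group none held identical counts. Cells of a day 3 flask were reseeded for day 6, so equal numbers of a treatment pair the days: in 7 of 12 such pairs the deviations from the group mean correlated above 0.1 (r -0.204 to 0.238). The fit with the flask as block used 32 libraries of 16 flasks, with 11 residual degrees of freedom.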

Additional observations from a re-analysis of the deposited data

Results flagged for a closer look

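These results were singled out because a test of the difference itself showed that an effect over vehicle differed between the hormones or between the days; no group held 4 to 10 libraries, so no library was tested as standing apart. At the matched dose of 0.01 µM on day 3 the log2 effects of dexamethasone and hydrocortisone differed for PLXNA2 by 1.37, for SEMA5A by 1.13 and for PLXND1 by 0.58, dexamethasone being higher. They differed by -0.64 for SEMA3C and by -0.65 for NRP1, dexamethasone being lower. The edgeR adjusted p lay between 3.32e-04 (PLXNA2) and 0.0255 (NRP1).

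Between day 3 and day 6 the effect of 10 µM hydrocortisone differed for SEMA5A by -1.22, for PLXNA2 by -0.88, for NRP1 by 0.53, for SEMA3C by 0.42 and for SEMA6D by 3.22. That of 1 µM dexamethasone differed for SEMA6D by 3.31. Both values of SEMA6D rest on day 6 vehicles with 0, 1, 0 and 10 counts.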

How the results depend on the processing

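Counts are of members past the threshold, and the share of all genes under each alternative is not given here. With DESeq2 8 members passed with 0.01 µM dexamethasone on day 3 (13 in edgeR) and 7 with 10 µM hydrocortisone on day 3 (11 in edgeR), which fell to 7 also without the libraries above 75% ribosomal counts and reached 20 against all vehicle groups. With 10 µM hydrocortisone on day 6 and for the vehicles of day 6 against day 3, 1 member passed in edgeR and 0 with DESeq2, without the libraries above 75% ribosomal counts and with the 4 day 6 vehicles as 1 group, an alternative chosen after seeing the data. The same held for the washout change of 1 µM dexamethasone, where RLE factors gave 2. Under DESeq2 and the pooled vehicles SEMA6D, the gene concerned, had no adjusted p; otherwise the cause was not tested.

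The replicate numbers of hormone and vehicle flasks share only a number: 2 of 9 pairs correlated above 0.1 (r -0.226 to 0.130). The replicate block gave 10 members with 10 µM hydrocortisone on day 3 (without ROBO3), and for the washout change of 1 µM dexamethasone 1, NRP1 in place of SEMA6D. With the flask as block 0 passed for that change and for the vehicles between days, and 4 for the washout change of 10 µM hydrocortisone.

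Leaving out 1 library at a time gave 14 to 18 members with 1 µM dexamethasone on day 3, 10 to 13 with 0.01 µM and 7 to 11 with 10 µM hydrocortisone (7 without hormone library 4 or vehicle library 1). It gave 8 to 13 with 1 µM dexamethasone on day 6 (8 without hormone library 2), 3 to 7 between the hormones at 0.01 µM (3 without hydrocortisone library 2 or 3), and 0 to 1 with 10 µM hydrocortisone on day 6 (0 without hormone library 2 or 3 or any vehicle library). For the washout changes it gave 0 to 2 with 1 µM dexamethasone and 2 to 6 with 10 µM hydrocortisone (2 without the day 6 vehicle library of either dexamethasone dose), and 0 to 2 for the vehicles between days. No named member reversed its direction in a value past the threshold: 817 values of called members kept their side of it and 161 lost it, and 50 values of members without a call passed it. At 1326 member counts in the shallowest library, changes of members below about 1 CPM are poorly resolved.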
